A study of Mus musculus with 5 samples.

Results

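Clec4e (Mincle), Clec4d (MCL), Clec7a (Dectin-1), Cd14, Tlr2, Tlr4, Cd33, Igsf6 and Mpeg1 are 9 genes of innate immune recognition that are best known from macrophages, monocytes and dendritic cells. They were chosen by name, with their levels in the same arrays already known, and each was read from the one probe set that carried its symbol alone, 9 of 19937 genes in all. RNA came from CD4 T cells with low surface CD44 (CD45+CD3+CD4+CD44low), sorted from mouse colonic lamina propria, and was hybridised to Affymetrix arrays whose values are on a log2 scale. The conditional group, 3 arrays, came from mice with a floxed Cnb1 gene, which encodes the regulatory subunit of the phosphatase calcineurin, and a Cre recombinase under CD4 (CD4cre/Cnb1flox). The control group, 2 arrays, came from mice with the same floxed gene and no Cre (CD4neg/Cnb1flox), so Cre and the loss of Cnb1 cannot be told apart. The labels give no strain, age or sex and do not say whether an array held RNA from 1 mouse or from several; the design text gives 3 independent experiments with several mice a group. Spread between arrays may therefore be technical, and so few arrays limit the precision of every value.

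These genes belong to the first line of microbial recognition. Mincle and MCL are neighbouring C-type lectins that bind glycolipids of mycobacteria and fungi and signal through the adaptor chain Fcer1g, the kinase Syk and Card9, while Dectin-1 binds fungal beta-glucan and reaches Syk through its own tail. CD14 hands lipopolysaccharide to TLR4 and lipopeptides to TLR2, and both Toll-like receptors signal through Myd88. CD33 is a sialic acid-binding lectin, Igsf6 an immunoglobulin-family membrane protein of myeloid cells, and Mpeg1 encodes perforin-2, a pore-forming protein that acts on engulfed bacteria. Naive T cells are not known for these genes.

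The arrays were not alike in cell content. T cell markers, given as the sum of linear signals over 14 genes, came to 30550, 32084 and 36342 on conditional arrays 1, 2 and 3 and to 6251 and 39453 on control arrays 1 and 2. Control replicate 1 stood apart, low in T cell markers and high in epithelial markers (summed signal 21482, against 3267 to 6145 on the other arrays) and in stromal and endothelial markers (30646, against 7290 to 13962). Its correlation with the other arrays lay between 0.894 and 0.933 across genes, which are not independent replicates. The 9 genes and the list medians below are therefore given against each control array as well as against their mean. In such bulk RNA, more cells of a type and more RNA per cell cannot be told apart.

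The promoter windows of 4 of these genes are shown because the 2 lectin neighbours and Igsf6 were read far above both controls and Tlr2 was not. Each runs from 250 bases before to 50 bases after the annotated start, 5′ to 3′ on the gene's strand (RefSeq, GRCm38.p6). Capitals mark GAGGAA or its reverse complement TTCCTC, a core sequence bound by PU.1, the myeloid factor that Spi1 encodes. The windows are chr6:123289822-123290121 (minus strand) for Clec4e, chr6:123261857-123262156 (plus strand) for Clec4d, chr7:121074481-121074780 (minus strand) for Igsf6 and chr3:83841559-83841858 (minus strand) for Tlr2.
Clec4e: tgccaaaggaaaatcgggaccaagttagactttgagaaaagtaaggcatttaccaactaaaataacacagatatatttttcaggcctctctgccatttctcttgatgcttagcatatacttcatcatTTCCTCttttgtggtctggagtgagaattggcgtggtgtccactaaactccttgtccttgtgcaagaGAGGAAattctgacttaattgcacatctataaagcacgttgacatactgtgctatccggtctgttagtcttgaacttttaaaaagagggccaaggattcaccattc
Clec4d: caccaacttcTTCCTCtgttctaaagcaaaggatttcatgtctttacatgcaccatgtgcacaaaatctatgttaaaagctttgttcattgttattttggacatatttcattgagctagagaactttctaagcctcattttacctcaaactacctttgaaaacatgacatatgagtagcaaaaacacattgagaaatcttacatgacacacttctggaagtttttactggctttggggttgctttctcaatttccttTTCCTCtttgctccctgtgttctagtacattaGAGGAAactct
Igsf6: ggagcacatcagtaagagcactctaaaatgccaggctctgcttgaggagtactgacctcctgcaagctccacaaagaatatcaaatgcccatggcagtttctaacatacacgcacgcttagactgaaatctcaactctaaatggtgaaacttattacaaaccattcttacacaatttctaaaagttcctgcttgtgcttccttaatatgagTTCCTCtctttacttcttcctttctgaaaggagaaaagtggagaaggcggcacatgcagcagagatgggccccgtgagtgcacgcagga
Tlr2: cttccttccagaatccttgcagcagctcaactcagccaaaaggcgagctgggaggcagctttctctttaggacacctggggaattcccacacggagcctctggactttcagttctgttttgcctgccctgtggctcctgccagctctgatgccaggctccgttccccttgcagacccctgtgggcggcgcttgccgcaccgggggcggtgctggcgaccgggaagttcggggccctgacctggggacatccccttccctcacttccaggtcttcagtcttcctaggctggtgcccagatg

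The Clec4e window held 2 of these cores, at offsets of -123 and -56 bases from the start, the Clec4d window 3, the Igsf6 window 1 and the Tlr2 window 0. Mpeg1, which was also read far above both controls, had 0 in its window too. The lectin and Igsf6 windows were 36.0% to 44.7% G or C, whereas the Tlr2 window was 62.0% and held 11 CG pairs. Windows were used for 7 of the 9 genes, 8 windows in all, since Clec7a has 2. Cd14, on chromosome 18, was left out, and no window was available for Tlr4. The PU.1 core was in 6 of the 8 windows, those of 5 genes, against 28.3% of 32851 windows of the same length. The NFAT core GGAAA or TTTCC, which can overlap the PU.1 core, was in 6 of 8 windows, those of 5 genes, against 61.3% of all windows. The AP-1 pattern TGANTCA was in 0 of 8 (7.81% of all windows), and the C/EBP pattern TTGCNNAA or TTNNGCAA in 1 of 8, that of Clec4e (10.8% of all windows). These matches are a description of letters in a window, made with the genes' levels known, and say nothing of binding.

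Mincle stood out among the 9. Clec4e was read at 10.40, 10.11 and 10.26 in conditional replicates 1, 2 and 3, against 6.08 and 5.06 in control replicates 1 and 2 (probe set 10547664, log2 signal). All 3 conditional arrays lay close together and 4.03 above the higher control, so the groups did not overlap. The difference of means was 4.69 ± 0.319 (SE, limma), or 25.8-fold, and it was 18.1-fold over control replicate 1 and 36.8-fold over control replicate 2. The gap between the 2 controls, 1.02, was larger than the range of 0.29 over the conditional arrays, and in the controls the probe set averaged the 18.0 percentile of all genes, so the fold is approximate.

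Clec4d, whose product pairs with Mincle, was read at 8.33, 8.19 and 7.82 in conditional replicates 1, 2 and 3, against 5.38 and 5.13 in control replicates 1 and 2. Every conditional value was above both controls, and the controls lay within 0.25 of each other. The difference was 2.86 ± 0.194 (SE), a 7.26-fold higher level in conditional cells, or 6.65-fold and 7.92-fold over control replicates 1 and 2 taken singly. Clec7a, the beta-glucan receptor gene, was read at 8.52, 8.86 and 7.91 in conditional replicates 1, 2 and 3, against 6.59 and 5.87 in control replicates 1 and 2. The groups did not overlap here either, with conditional replicate 3 the lowest of its group and control replicate 1 the higher control. The Clec7a difference was 2.20 ± 0.359 (SE), or 4.595-fold, from 3.57-fold over control replicate 1 to 5.91-fold over control replicate 2.

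Cd14, the co-receptor for lipopolysaccharide, was read at 8.91, 9.07 and 10.17 in conditional replicates 1, 2 and 3, against 7.69 and 6.26 in control replicates 1 and 2. It was the most variable of the genes that were higher, with conditional replicate 3 more than 1 log2 unit above its group and the controls 1.43 apart. The difference was 2.41 ± 0.575 (SE), or 5.32-fold, from 3.24-fold over control replicate 1 to 8.73-fold over control replicate 2.

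The Toll-like receptor partners of CD14 did not share its pattern. Tlr2 was read at 8.38, 8.15 and 8.50 in conditional replicates 1, 2 and 3, against 8.14 and 7.42 in control replicates 1 and 2. The lowest conditional value lay only 0.012 above the higher control. Tlr2 differed by 0.56 ± 0.248 (SE), with a 95% interval from -0.07 to 1.19, and by 0.20 and 0.92 over control replicates 1 and 2 taken singly. Tlr4, the lipopolysaccharide receptor, was read at 6.36, 6.65 and 6.05 in conditional replicates 1, 2 and 3, against 8.62 and 6.15 in control replicates 1 and 2. Control replicate 1 alone was high and the groups overlapped. The Tlr4 difference of -1.03 ± 0.734 (SE) accordingly turned from -2.27 against control replicate 1 to 0.20 against control replicate 2, so its direction rests on the control array with few T cell transcripts.

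Cd33 was the steadiest of the 9. It was read at 8.79, 8.75 and 8.70 in conditional replicates 1, 2 and 3, against 6.70 and 6.86 in control replicates 1 and 2. The conditional arrays spanned 0.09 and lay 1.84 above the higher control. The difference was 1.96 ± 0.109 (SE), or 3.90-fold, and 4.12-fold and 3.69-fold over control replicates 1 and 2 taken singly.

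Igsf6 was read at 8.97, 8.75 and 9.47 in conditional replicates 1, 2 and 3, against 5.97 and 5.65 in control replicates 1 and 2. Conditional replicate 3 was the highest array, and the groups were 2.78 apart. The difference was 3.25 ± 0.248 (SE), or 9.53-fold. In the reference gene table Igsf6 lies within the span of Mettl9, a methyltransferase gene, and Mettl9 differed the other way, by -0.60 ± 0.121 (SE, limma, adjusted p = 0.131). Mpeg1, the perforin-2 gene, was read at 8.02, 8.47 and 8.45 in conditional replicates 1, 2 and 3, against 5.92 and 6.08 in control replicates 1 and 2. Its difference of 2.31 ± 0.180 (SE), or 4.97-fold, was nearly the same over control replicate 1 (5.25-fold) and control replicate 2 (4.70-fold).

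**Figure D1:**
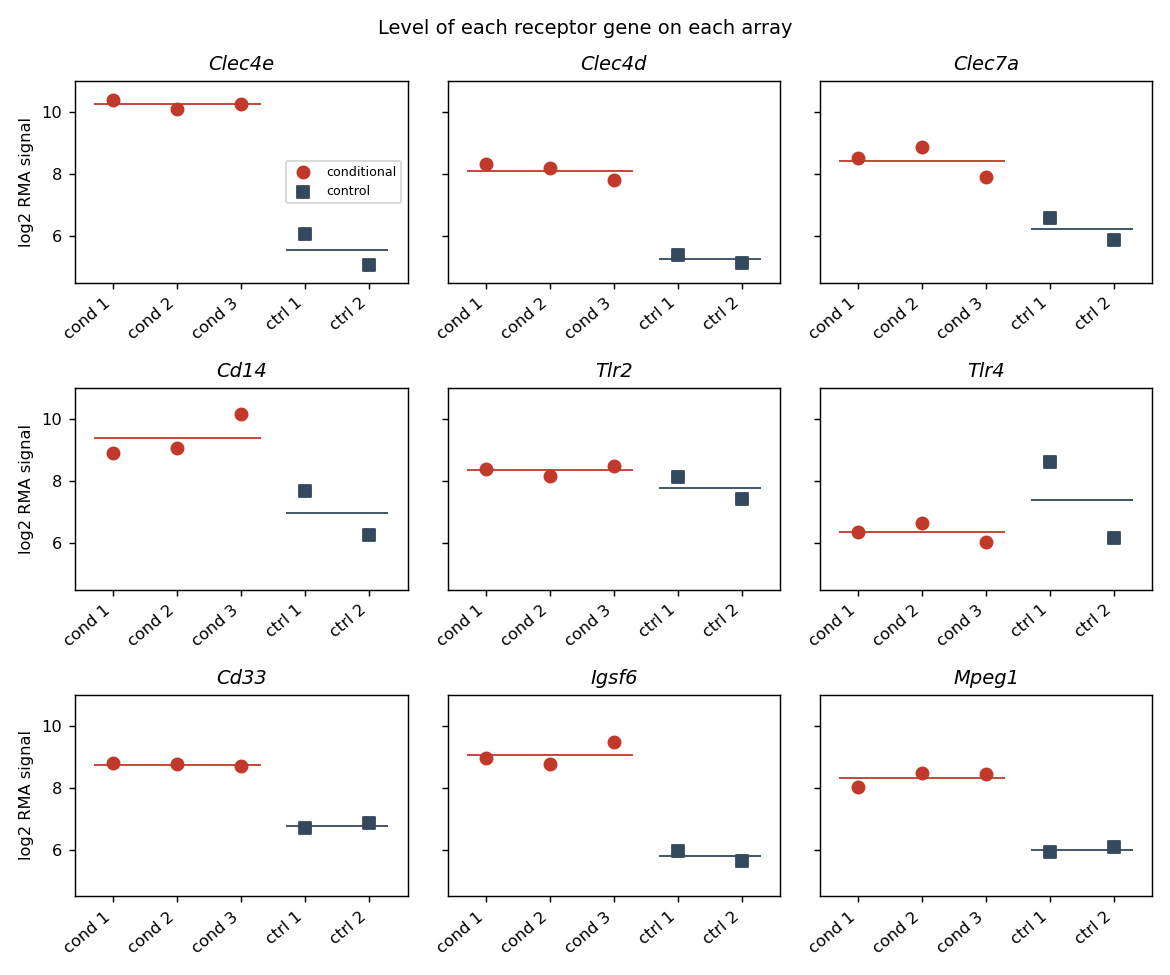
Log2 RMA signal (y axis) of the 9 receptor genes on each of the 3 conditional arrays (circles) and 2 control arrays (squares), with group means as lines. The circles lie above both squares in 8 panels, by 4.03 for Clec4e and by 0.012 for Tlr2, and in the Tlr4 panel control replicate 1, at 8.62, is the highest point.

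Across the 9 genes the median difference was 2.31, against 0.03 over all 19937 genes, and the quartiles of all genes were -0.16 and 0.16. Taken against one control array at a time, it was 2.04 (replicate 1) and 2.56 (replicate 2). In 8 of the 9 the groups did not overlap with the conditional arrays higher, as was so in 17.4% of all genes (13.1% had them lower, 30.5% either way). In the fit over all genes (limma), 5 of the 9 lay past an adjusted p of 0.05 with a higher level, as did 0.371% of all genes (0.0451% lower, 0.416% either way). These genes were picked with this contrast known, so both counts only describe the choice and nothing is read from them. Their spread was wider than usual on both sides: the median SD over the conditional arrays was 0.266 for the 9 genes and 0.118 for all genes, and the median gap between the 2 controls was 0.72 and 0.28. In 7 of the 9, control replicate 1 read higher than control replicate 2, as did 39.9% of all genes.

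**Figure D2:**
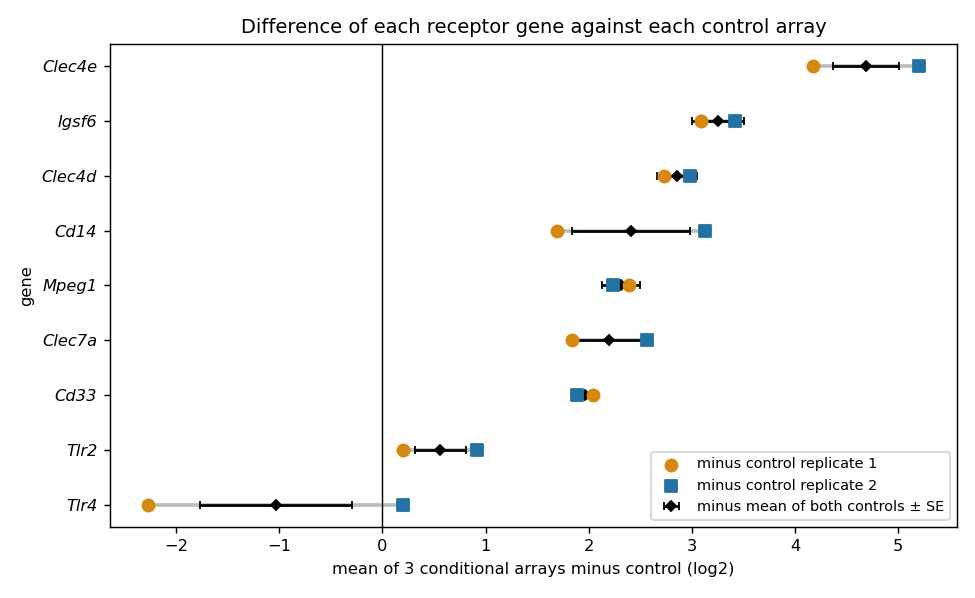
Mean of the 3 conditional arrays minus each control array (circle, control replicate 1; square, control replicate 2) and minus their mean (diamond ± SE), in log2 units, by gene. The Clec4e points lie at 4.18 and 5.20 and the Igsf6 points at 3.09 and 3.41, while the Tlr4 points lie on opposite sides of 0, at -2.27 and 0.20.

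Clec4e and Clec4d lie side by side on chromosome 6, and the genes around them were mostly level. Clec4n, the Dectin-2 gene that comes next after Clec4d, was read at 6.56, 6.42 and 5.97 in conditional replicates 1, 2 and 3, against 4.75 and 5.25 in control replicates 1 and 2. All 3 conditional arrays were above both controls, but its difference of 1.32 did not pass the test (limma, adjusted p = 0.116). Beyond Clec4n, Clec4b2, Clec4a2, Clec4b1 and Clec4a4 differed by 0.02, 0.03, 0.09 and 0.14, and none passed. These lectin genes were dim in both groups, so a small difference says little. They averaged the 7.98, 9.43, 0.459 and 6.01 percentile of all genes in the controls and 7.77, 9.37, 0.662 and 6.99 in the conditional arrays. On the other side of Clec4e, the 5 nearest measured genes were vomeronasal receptors, with differences between -0.09 and 0.08, and the next was Cd163, a scavenger receptor gene of macrophages, at 0.11. Differences therefore descended over 3 adjoining genes, from Clec4e through Clec4d to Clec4n.

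Clec7a lies further along the same chromosome, among other lectin genes and beside the natural killer receptor genes. Its next neighbours Olr1, an oxidised-lipoprotein receptor gene, and Clec1a differed by 0.96 (adjusted p = 0.109) and 0.002 (adjusted p = 0.998, limma), and Clec9a, a dendritic cell receptor for dead cells, by 0.57. Klrd1 (CD94) and Klrk1 (NKG2D), natural killer receptor genes 5 and 6 measured genes away, differed by 3.24 and 1.72 (limma, adjusted p = 0.0501 and 0.0800), with Klre1 between them and Clec7a at -0.01. None of these neighbours passed the test, and the 12 nearest measured genes around Cd14 lay between -0.23 and 0.36.

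**Figure D3:**
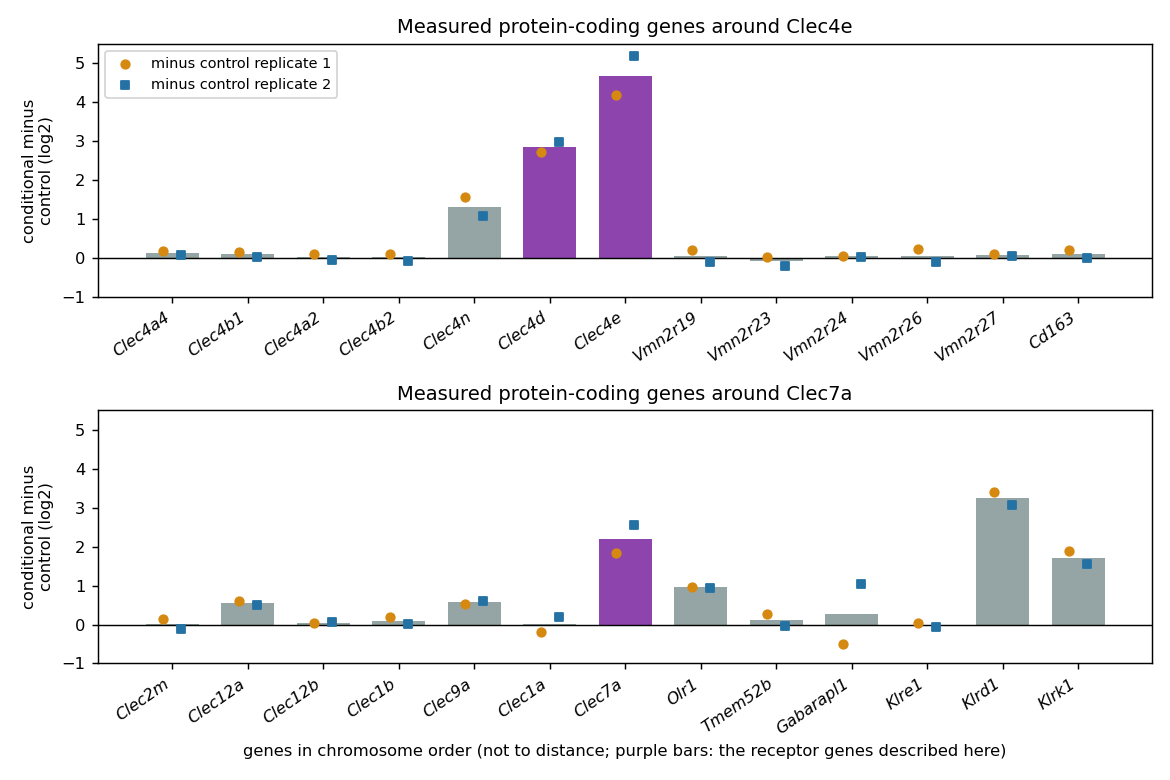
Conditional minus control difference (log2, bars against the mean of both controls; points against each control) for measured protein-coding genes in chromosome order around Clec4e (top) and Clec7a (bottom). Clec4e at 4.69, Clec4d at 2.86 and Clec4n at 1.32 stand beside genes near 0, and Klrd1 at 3.24 is the tallest bar near Clec7a.

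No receptor on the lists of other C-type lectin and Toll-like receptors passed the test. The lists leave out the lectin-like natural killer receptor genes. Of those, Klrc1, Klrc2 and Klrb1b passed as higher, by 5.59, 3.38 and 1.54 (limma, adjusted p = 0.0112, 0.0453 and 0.0300), whereas Klrd1, Klrk1 and Klre1 did not pass. Of 25 other C-type lectin receptors measured, 0 passed the test (limma, 7 at an unadjusted p under 0.05), and their median difference was 0.15, with 0.21 against control replicate 1 and 0.10 against control replicate 2. In 11 of them, 44.0%, the conditional arrays were all above both controls, against 17.4% of all genes, and 3 differed by over 1, as did 2.15% of all genes. Apart from Clec4n these were Ly75 and Clec5a. Ly75 (DEC-205), an endocytic receptor, differed by 1.85 (adjusted p = 0.110), or 2.40 and 1.30 over control replicates 1 and 2 taken singly, Clec5a, a receptor that signals through Tyrobp, by 1.07 (adjusted p = 0.0724, limma) and Olr1 by 0.96. Clec5a was read at 6.23, 6.34 and 5.97 in conditional replicates 1, 2 and 3, against 5.06 and 5.16 in control replicates 1 and 2, so its groups were well apart. Most of the 25 were dim. Without genes under the lower quartile of mean level 7 were left (median difference 0.15), and without genes under the median level 2 (0.81). Dim probe sets may hide a difference, so the median over the 25 does not show that these receptors were unchanged.

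Among 8 other Toll-like receptors, 0 passed (limma, 1 at an unadjusted p under 0.05) and the median difference was 0.06, with 0.38 against control replicate 1 and -0.08 against control replicate 2. Tlr13, a sensor of bacterial ribosomal RNA in mice, was the one with groups apart, at 7.59, 7.78 and 6.93 in conditional replicates 1, 2 and 3 against 5.73 and 6.11 in control replicates 1 and 2. Its difference of 1.52 did not pass (limma, adjusted p = 0.124). Tlr3, the double-stranded RNA receptor, differed by -0.88 (adjusted p = 0.485, limma), and by -0.09 against control replicate 2 alone. Tlr9, the receptor for unmethylated CpG DNA, differed by 0.11 and by -0.07 against control replicate 2 alone.

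Of 19 co-receptors and adaptors of Toll-like receptors, 0 passed (limma, 5 at an unadjusted p under 0.05), and the median difference was 0.22 (0.28 and 0.14 over control replicates 1 and 2 taken singly). Myd88, the shared adaptor, differed by 0.22 (adjusted p = 0.566), or 0.04 and 0.41 by control replicate, and Ly96 (MD-2), which TLR4 needs to bind lipopolysaccharide, by 0.47, from -0.34 against control replicate 1 to 1.29 against control replicate 2. Irak2, a kinase of the Myd88 complex, differed by 0.88 (adjusted p = 0.166, limma), or 1.19 and 0.56 over control replicates 1 and 2. The kinase gene Map3k7 (TAK1) differed by 0.48 and its partner Tab2 by 0.70, the second of these by 0.93 and 0.47 over control replicates 1 and 2. Lbp, which carries lipopolysaccharide to CD14, differed by -0.95 (adjusted p = 0.305).

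Of the adaptor and signalling genes of Mincle, Dectin-1 and related receptors, Tyrobp passed the test. Tyrobp (DAP12), an adaptor chain with an ITAM motif, rose in conditional cells, at 9.01, 9.19 and 8.94 in replicates 1, 2 and 3 against 7.25 and 7.09 in control replicates 1 and 2. Tyrobp thus differed by 1.88 ± 0.129 (SE), or 3.67-fold (limma, adjusted p = 0.0269), a result already known when the list was written. Fcer1g, the chain that Mincle and MCL use, was read at 9.46, 9.25 and 9.73 in conditional replicates 1, 2 and 3, against 7.64 and 7.91 in control replicates 1 and 2. Its groups were 1.35 apart and the difference was 1.71 ± 0.184 (SE), but it fell just short of the threshold (limma, adjusted p = 0.0501). Hcst (DAP10), another adaptor chain, overlapped between the groups and differed by 0.52 (limma, adjusted p = 0.700), or 1.35 and -0.30 over control replicates 1 and 2. Syk, Card9 and Bcl10 differed by 0.02, 0.03 and 0.006 (limma, adjusted p = 0.974, 0.960 and 0.995), each with opposite signs over the 2 controls, and Prkcd, a kinase that phosphorylates Card9, by 0.60 (adjusted p = 0.111). In this group 1 of 14 genes passed as higher, 7.14% against 0.371% of all genes, and the median difference of 0.34 became 0.63 and -0.02 over control replicates 1 and 2 taken singly.

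The families nearest to Cd33 and Mpeg1 were tested in the same way. Of 17 listed Siglecs and paired inhibitory receptors or their phosphatases, 0 passed (limma, 4 at an unadjusted p under 0.05), and the median difference of 0.21 became 0.53 and 0.00085 over control replicates 1 and 2 taken singly. Pilra, a paired receptor gene that was not on this list, passed as higher, by 1.74 (limma, adjusted p = 0.0277). Lilrb4a, an inhibitory receptor gene, differed by 1.90 (adjusted p = 0.110), or 2.46 and 1.34 over control replicates 1 and 2, the Siglec gene Siglece by 0.84 (adjusted p = 0.131) and Cd300a by 0.53 (limma, adjusted p = 0.174). Of 15 scavenger and phagocytic receptors with perforin, 0 passed (limma, 4 at an unadjusted p under 0.05). Their median of 0.11 became 0.40 and 0.17 over control replicates 1 and 2 taken singly, and the low-affinity IgG receptor genes Fcgr3 and Fcgr4 differed by 0.99 and 1.24 (adjusted p = 0.0800 and 0.176) and Itgam (CD11b) by 0.80, or 1.11 and 0.50 over control replicates 1 and 2. Of 10 listed cytosolic sensors 0 passed (limma, 1 at an unadjusted p under 0.05), with a median of -0.08 (0.03 against control replicate 1 and -0.22 against control replicate 2). The inflammasome sensor gene Nlrp3 was not on this list and passed as higher, by 2.68 (limma, adjusted p = 0.0171). Nod1 and the mitochondrial adaptor gene Mavs differed by -0.87 and -0.35 (-0.58 and -0.19 against control replicate 2 alone), and Aim2, a DNA sensor gene, by 1.01 (0.33 against control replicate 2 alone).

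Genes that these receptors induce in macrophages were examined next. Of 23 measured, 3 rose, Il1a, Cxcl2 and Acod1, which is 13.0% against 0.371% of all genes, and 0 fell. The list was written with earlier results of these data known, among them the levels of Il1a and Acod1. The share of calls is therefore not independent of that choice and only describes the list. Cxcl2, a neutrophil-attracting chemokine gene, was read at 11.93, 11.73 and 11.72 in conditional replicates 1, 2 and 3, against 9.57 and 9.34 in control replicates 1 and 2, a 5.07-fold higher level (limma, adjusted p = 0.0182). Il1a, the interleukin-1 alpha gene, and Acod1, the itaconate-producing enzyme gene, were higher by 5.26 and 3.52 (limma, adjusted p = 0.0112 and 0.0285).

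In 15 of the 23 induced genes, 65.2%, the conditional arrays lay above both controls, against 17.4% of all genes, and the median difference was 0.96, with 1.05 against control replicate 1 and 0.93 against control replicate 2. Il1b differed by 3.28 (adjusted p = 0.0726), or 2.56 and 4.005 over control replicates 1 and 2, Il23a by 1.37 (adjusted p = 0.0672), Il12b by 0.84 (adjusted p = 0.0672) and Nos2 by 1.07 (limma, adjusted p = 0.111). Il6 and Ptgs2 went either way with the control array. Il6 differed by -1.02 against control replicate 1 and by 2.53 against control replicate 2, and Ptgs2 by -0.32 and 3.02. Il10 overlapped between the groups and differed by -0.18 and -2.80. The calls for Tyrobp, Cxcl2, Il1a and Acod1 were lost when any 1 conditional array was left out (limma, adjusted p between 0.0621 and 0.303), and Tyrobp and Acod1 were also not called with array weights (adjusted p = 0.0818 and 0.103).

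**Figure D4:**
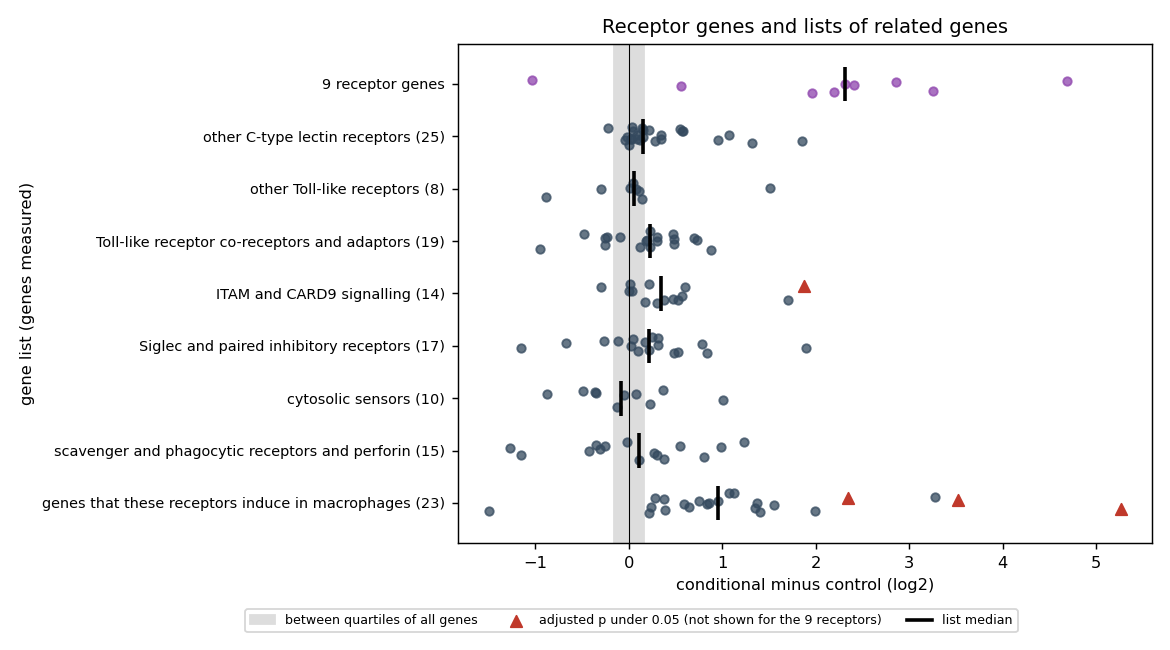
Conditional minus control difference (log2, x axis) of each measured gene in the 9 receptor genes and 8 lists of related genes, with list medians as black lines and the span between the quartiles of all genes shaded. Triangles mark genes past an adjusted p of 0.05 (not shown for the 9 receptor genes). The receptor genes have a median of 2.31, the induced genes 0.96 and every other list 0.34 or less.

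Markers of macrophages, monocytes and dendritic cells were summed over each array. The summed linear signal of 21 such markers, none of which is one of the 9, was 6598, 7706 and 9634 on conditional arrays 1, 2 and 3 and 3772 and 4485 on control arrays 1 and 2, so the groups did not overlap. In 12 of the 21, 57.1%, all conditional arrays were above both controls, against 17.4% of all genes, and 0 passed the test (limma, 9 at an unadjusted p under 0.05). The median difference was 0.63, with 0.82 against control replicate 1 and 0.40 against control replicate 2. No marker is at 0 on such an array, which gives no call against background. Granulocyte and mast cell markers, 20 genes, summed to between 5478 and 6105 on the conditional arrays and to 1862 and 2719 on control arrays 1 and 2, with 12 apart and higher (60.0%, against 17.4% of all genes), 1 apart and lower (5.00%, against 13.1%), and 0 past the test (limma, 11 at an unadjusted p under 0.05). Their median difference of 0.43 became 0.66 and 0.43 over control replicates 1 and 2. Il1r2 and Kit made up 3510 to 4097 of that sum on the conditional arrays and 724 and 1185 on control arrays 1 and 2. The other 18 summed to between 1965 and 2008 on the conditional arrays and to 1138 and 1534 on control arrays 1 and 2, still without overlap. The highest of them on average were Ctss, at 9.45, 9.93 and 9.85 in conditional replicates 1, 2 and 3 against 8.53 and 9.90 in control replicates 1 and 2, and Csf2rb, among the myeloid markers, and the decoy receptor gene Il1r2 and the stem cell factor receptor gene Kit among the granulocyte and mast cell markers. The part that such cells have in the levels of the 9 genes was not tested.

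Markers of other cell types, listed with earlier results of these data known, were tested in the same fit. Of 11 natural killer and innate lymphoid markers, 1 rose, the receptor gene Klrb1b (1.54, limma, adjusted p = 0.0300), which is 9.09% against 0.371% of all genes, and the median difference of 1.004 became 1.37 and 0.43 over control replicates 1 and 2 taken singly. Of 12 epithelial markers, 2 fell, the keratin gene Krt20 by 1.67 and the brush border gene Cdhr5 by 1.41 (limma, adjusted p = 0.0327 and 0.0366), against 0.0451% of all genes, with a median of -1.52 that was -2.34 and -0.63 over control replicates 1 and 2 taken singly. These 3 calls were lost with array weights and when any 1 conditional array was left out (limma, adjusted p between 0.0983 and 0.303). None of 11 B cell, 12 stromal and endothelial or 14 T cell markers passed (limma, 4, 2 and 0 at an unadjusted p under 0.05), and their medians were -0.62, -0.66 and 1.003. Over control replicates 1 and 2 taken singly, the B cell median was -0.42 and -0.79, the stromal and endothelial one -1.62 and -0.12, and the T cell one 2.33 and -0.37.

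Several defining macrophage genes were unevenly spread over the conditional arrays. C1qb, a complement gene of tissue macrophages, was read at 7.53, 7.68 and 9.93 in conditional replicates 1, 2 and 3, against 6.23 and 7.04 in control replicates 1 and 2. Lyz2, the myeloid lysozyme gene, was read at 8.92, 9.06 and 10.59 in conditional replicates 1, 2 and 3, against 7.76 and 7.12 in control replicates 1 and 2. Csf1r, the receptor that macrophages need to survive, was read at 7.18, 7.59 and 8.47 in conditional replicates 1, 2 and 3, against 6.57 and 6.63 in control replicates 1 and 2. All 3 were thus highest in conditional replicate 3. Adgre1 (F4/80) was highest there as well, at 6.61, and C1qa and C1qc overlapped between the groups. Itgax, at 7.61, 7.97 and 7.62 in conditional replicates 1, 2 and 3 against 6.52 and 6.61 in control replicates 1 and 2, did not peak there. Csf2rb was lowest there, at 9.74, against 10.31 and 10.75 in conditional replicates 1 and 2.

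The receptor genes divided over the same arrays. Cd14 (10.17) and Igsf6 (9.47) were highest in conditional replicate 3, and so, narrowly, was Tlr2 (8.50). Clec4d (7.82) and Clec7a (7.91) were lowest in that array, as were Tlr4 (6.05) and, narrowly, Cd33 (8.70). Of the 20 granulocyte and mast cell markers, 8 were lowest and 8 highest in that array within the conditional group, against 2 lowest and 12 highest of the 21 macrophage, monocyte and dendritic cell markers. Among those lowest there were the neutrophil genes S100a9 (7.96, 8.19 and 7.46 in conditional replicates 1, 2 and 3, against 6.46 and 6.58 in control replicates 1 and 2) and Csf3r (8.01, 7.72 and 7.21, against 6.18 and 6.53). The neutrophil gene Ly6g was lowest there too (6.26, 5.95 and 5.71) but lay below both controls (6.27 and 6.96), with a difference of -0.64. Kit was, narrowly, among the 8 highest there (9.87, 9.88 and 9.91, against 8.15 and 7.28 in control replicates 1 and 2). With 8 lowest and 8 highest, the granulocyte and mast cell list leaned neither way in that array. A link of these markers to the receptor genes was not tested. In conditional replicate 3 Clec4e lay between its other values. It spanned 0.29 over the conditional arrays, on which C1qb spanned 2.40, Lyz2 1.68 and Itgax 0.36. Without conditional replicate 3 the Clec4e difference was 4.69, that of Clec4d was 3.01, that of Clec7a 2.46 and that of Cd14 2.02. Spi1 (PU.1) was read at 8.75, 9.12 and 8.98 in conditional replicates 1, 2 and 3, against 7.89 and 7.73 in control replicates 1 and 2, a difference of 1.14 that did not pass (limma, adjusted p = 0.0672).

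**Figure D5:**
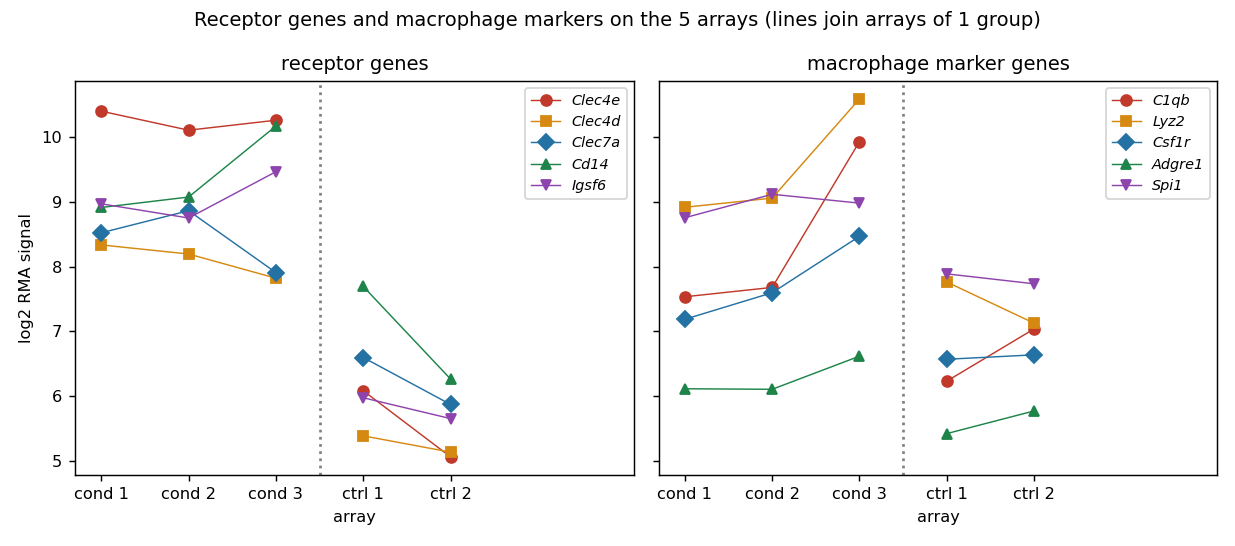
Log2 RMA signal (y axis) of 5 receptor genes (left) and 5 macrophage marker genes (right) on the 3 conditional and 2 control arrays; lines join arrays of 1 group. C1qb reaches 9.93 and Lyz2 10.59 in conditional replicate 3, where Clec4d and Clec7a have their lowest conditional values and Cd14 its highest.

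The genes whose profiles over the 5 arrays lay closest to each receptor gene were found by the mean absolute difference of profiles centred on each gene's own mean, given in log2 units. Closest to Clec4e were Il1a (0.286), Il12rb2, a chain of the interleukin-12 receptor (0.361), and Klrc1, the NKG2A receptor gene (0.544). Clec4d lay closest to Nlrp3, the inflammasome sensor gene (0.112), and then to Cd80, a costimulatory ligand gene (0.178), and Rnf157 (0.219). Nlrp3 was also close to Igsf6 (0.317), after Klrc2 (0.248) and Nmrk1 (0.300). Clec7a lay closest to Dgat2, a triglyceride synthesis gene (0.169), Trem1, an amplifying receptor gene of myeloid cells (0.196), and Phlpp1 (0.206).

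Cd14 had other company. Its closest genes were Il1rn, the interleukin-1 receptor antagonist gene (0.236), the macrophage marker Lyz2 (0.299) and Adam30 (0.332). Cd33 lay closest to the efflux pump gene Abcb1a (0.0450), the costimulatory receptor gene Tnfrsf9 (0.0807) and Pilra (0.108), and Mpeg1 to the receptor segment Trdv2-2 (0.0531), the protease gene Adam8 (0.107) and Vcpkmt (0.116). Tlr2 lay closest to Lpcat2 (0.0732), Cd40 (0.0793) and Sgpl1 (0.0824), and Tlr4 to Chpt1, Fam171b and Ndst3 (0.0420, 0.0458 and 0.0517). Of the 9 genes themselves, Igsf6 was the nearest to Clec4e (0.690, the 11th closest of all genes), and Igsf6 and Clec4d were 0.343 apart. With 5 arrays such likeness is a description, and genes with one shift between the groups resemble each other by that alone.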

How the data were processed

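Arrays were grouped by the genotype labels (3 conditional, 2 control), with replicate numbers from the titles. The deposited values are log2 signals. Per the submitters' processing notes they come from RMA and oligo, with no version stated there. RMA subtracts background, quantile-normalizes arrays together and summarises probes, so differences of dim genes are compressed. RNA integrity was at least 9.2 per the labels. Of 34760 probe sets, 21640 carried 1 gene symbol in the platform annotation, 1321 several and 11799 none here. Each of 19937 genes was represented by its brightest probe set, averaged across the 5 arrays.

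The comparison used limma 3.58.1 under R 4.3.3 (lmFit, eBayes, two-sided, no covariate), and Benjamini-Hochberg adjustment covered the whole table, with calls at 0.05. The test was also run on simulated arrays with independent normal values and no outlying control. That run cannot show how the test behaves on arrays as unlike as these. The 9 genes and the 8 related and 7 marker lists were chosen with earlier results of these data known, so the 9 carry no p. Genes named from the related lists were those past the threshold, or at least the 3 with the smallest p; of marker lists, the 2 with the highest mean and any past the threshold were taken, with values given for those that bear on the receptors; for each receptor the 3 nearest profiles were named. Other genes named, chosen after their values were seen, are defining markers, shared signalling genes, well-known targets and chromosome neighbours. Promoter windows and gene order came from RefSeq (GRCm38.p6), whereas the probe sets' own build was not stated. Listed genes without a probe set of their own were not analysed here. Alternatives were other scaling, filters, probe set choice, variance models, a replicate block and each array left out.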

Additional observations from a re-analysis of the deposited data

How the results depend on the processing

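Of the 9 receptor genes, the differences of Clec4e, Clec4d, Clec7a, Cd14, Tlr2, Cd33, Igsf6 and Mpeg1 stayed above 0 under every alternative run on them, and that of Tlr4 turned to 0.20 without control replicate 1. Their median lay between 2.25 and 2.36 under the alternatives that kept all arrays and had no replicate block. It was 2.36 without Tlr4 (added after the data were seen). When 1 array was left out it lay between 2.04 and 2.56, the extremes being without control replicates 2 and 1.

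The number of genes past the threshold over the whole table was unstable (limma, 74 higher and 9 lower). It was 46 and 2 after repeated quantile normalization, 62 and 14 with each array centred on its median, 59 and 4 without genes under the median, 13 and 0 with array weights (2247 at an unadjusted p under 0.05), and 268 and 106 at an adjusted p of 0.1. Leaving out 1 array gave 0 to 2190 higher and 0 to 3284 lower, with 0 when any conditional array was left out (limma, 1417 to 2037 at an unadjusted p under 0.05), 665 and 552 without control replicate 1, and 2190 and 3284 without control replicate 2. The cause was not tested.

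List medians moved mostly with the control array. Leaving out 1 array gave medians of -0.081 to 0.38 for other Toll-like receptors, 0.14 to 0.28 for their adaptors, -0.020 to 0.63 for ITAM and CARD9 signalling, 0.00085 to 0.53 for Siglecs and inhibitory receptors, -0.22 to 0.033 for cytosolic sensors and 0.040 to 0.40 for scavenger receptors. Without genes under the median, which leaves fewer members, the medians were 0.81 for other C-type lectins, -0.091 for other Toll-like receptors, -0.20 for cytosolic sensors and -0.35 for scavenger receptors. The Toll-like receptor median was also -0.0013 with median centring, 0.093 without the lower quartile, 0.13 with array weights and 0.020 with the replicate block.

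The labels do not say whether equal replicate numbers mark a shared experiment. Deviations from the group means correlated at 0.40 for number 1 and -0.29 for number 2, but with 2 controls one deviation mirrors the other, so these values cannot settle it. With the replicate block 61 genes were higher and 8 lower (limma), the median of the 9 receptor genes was 2.24, and 4 of the 23 induced genes passed as higher. Only conditional replicate 3 has the number 3, so the differences with the block equal those without that array. Dim probe sets in control cells limit how well the size of a difference is known.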
